A study of Mus musculus with 6 samples.

Results

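The tumour necrosis factor (TNF) receptor superfamily is described here through 9 genes, taken by name from the 57180 genes in the count table. They comprise 7 receptors other than RANK (Tnfrsf1a, Tnfrsf1b, Tnfrsf14, Tnfrsf21, Tnfrsf12a, Cd40 and Fas) and 2 adaptors that bind to the tails of such receptors (Traf1 and Traf2). RNA was sequenced from osteoclast precursors (OCPs), the macrophage-derived cells that fuse into bone-resorbing osteoclasts, in 3 wild-type (WT) and 3 lincRNA-EPS knockout (KO) libraries. Bone marrow-derived macrophages came from C57BL/6 mice or from mice lacking lincRNA-EPS (erythroid prosurvival), a long intergenic noncoding RNA. Both genotypes received 40 ng/ml M-CSF, the macrophage growth factor, for 24 hours, and then 40 ng/ml RANKL, the osteoclast-inducing cytokine, for 48 hours. The replicates are stated to be biologically independent, and the sources do not say whether any of them shared a mouse. Every library had M-CSF and RANKL, so none shows the cells without RANKL.

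TNF signals through a pair of receptors. Tnfrsf1a (TNFR1) carries a death domain and can start both NF-κB activation and cell death, whereas Tnfrsf1b (TNFR2) has no death domain and recruits TRAF2, often together with TRAF1, directly. TNF acts on osteoclast precursors alongside RANKL, which binds RANK, itself a member of the same superfamily. Of the 9 genes, 5 carry the KEGG term for TNF signalling in the table, and 2 of them (Tnfrsf1a and Traf2) carry the term for osteoclast differentiation. The table lists the cysteine-rich receptor domain for 6 of the 7 receptors and a domain of its own for Tnfrsf12a. It lists a death domain for 3 of them, namely Tnfrsf1a, Tnfrsf21 and Fas.

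All 9 genes passed the filter on low counts and were among the 13428 genes tested. Tnfrsf1b, Tnfrsf21 and Tnfrsf14 each had a level in KO about 0.67 times that in WT, with every KO library below every WT library. Tnfrsf1a and Traf2 were lower in KO by a smaller amount, which shrank towards 0 once the GC content of the transcripts was taken into account. The WT and KO libraries of Traf1, Tnfrsf12a, Cd40 and Fas overlapped. None of the 9 passed the limits of an adjusted p under 0.01 and a fold change above 1.3 in edgeR's quasi-likelihood test with Benjamini-Hochberg adjustment, in which 0.00745% of the genes tested (1 gene) passed. With DESeq2, which called 1.22% of its genes, 0.695% as lower in KO, Tnfrsf1b and Tnfrsf21 passed the same limits as lower. With GC correction edgeR called 0 members and 0.0521% of all genes, and DESeq2 called the same 2 members and 3.06% of its genes. The study had picked Tnfrsf1b from these same libraries, among the genes it drew in a heatmap, so its difference is not independent evidence.

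The sequence just before the start of Tnfrsf1b and Tnfrsf21 is shown because these are the members with the smallest p-values, and because they differ in what a motif search finds there. Both are 250-base windows from RefSeq on build GRCm38.p6, read 5′ to 3′ on the strand of the gene and ending at the base before its start. Neither overlaps an annotated exon. Tnfrsf1b is the window at chr4:145246871-145247120 on the minus strand, and Tnfrsf21 the window at chr17:43016305-43016554 on the plus strand. Capitals mark matches to any of the 4 motifs searched.
Tnfrsf1b: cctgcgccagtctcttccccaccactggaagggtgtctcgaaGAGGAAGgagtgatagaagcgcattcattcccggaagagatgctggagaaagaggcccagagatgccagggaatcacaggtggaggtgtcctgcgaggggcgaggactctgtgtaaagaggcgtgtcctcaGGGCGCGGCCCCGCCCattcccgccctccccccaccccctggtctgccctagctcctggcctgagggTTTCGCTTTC
Tnfrsf21: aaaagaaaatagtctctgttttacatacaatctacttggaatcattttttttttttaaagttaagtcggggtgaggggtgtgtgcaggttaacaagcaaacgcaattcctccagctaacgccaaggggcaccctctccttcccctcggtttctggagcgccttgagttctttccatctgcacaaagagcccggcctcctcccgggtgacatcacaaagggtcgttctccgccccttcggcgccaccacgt

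The motifs, read on both strands, were GGGNNNNNCC for NF-κB, TTTCNNTTTC for the interferon-stimulated response element (ISRE), TGANTCA for AP-1 and GAGGAAG for ETS factors such as PU.1. The Tnfrsf1b window held an ETS match 208 to 202 bases before the start, 3 NF-κB matches that overlap each other between 77 and 62 bases before it, and the ISRE match TTTCGCTTTC in the last 10 bases. The window of Tnfrsf21 held no match to any of the 4. RefSeq promoters were found for 8 of the 9 members, all but Cd40. The ISRE letters were found in 2 of these 8, Tnfrsf1b and Tnfrsf14 (TTTCATTTTC, 64 to 55 bases before the start, in a window that overlaps exons), and in 2.98% of the 32851 windows of all genes. The NF-κB letters are common, being present in 6 of the 8 members and in 45.8% of all windows. The AP-1 letters were in 1 member (Fas) and 6.75% of all windows, and the ETS letters in 2 members (Tnfrsf1b and Traf2) and 10.6%. These matches are descriptions of the letters and not of binding.

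Levels between genes were compared per length, as CPM (counts scaled to library size) per kilobase of the longest coding transcript. In WT, Tnfrsf1b had the highest of the 9 levels at 98.8 ± 8.95 (SD, n = 3), followed by Tnfrsf1a at 63.6 ± 7.03 and Traf1 at 39.2 ± 2.04. Tnfrsf21 (17.5 ± 1.49), Traf2 (15.7 ± 0.359) and Tnfrsf14 (12.8 ± 1.28) formed a middle range. Tnfrsf12a (7.40 ± 0.631), Fas (6.38 ± 0.905) and Cd40 (1.82 ± 0.496) had the lowest levels. Each gene was separated from the next by all 3 WT libraries, except Tnfrsf12a and Fas, which overlapped.

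The same 3 genes led in KO, with Tnfrsf1b at 66.2 ± 7.90, Tnfrsf1a at 53.2 ± 2.15 and Traf1 at 38.3 ± 2.10 CPM per kilobase. Traf2 (13.5 ± 1.63) then stood above Tnfrsf21 (11.7 ± 0.842), although these neighbours overlapped. Tnfrsf14 (8.51 ± 1.83), Tnfrsf12a (8.19 ± 1.68) and Fas (7.10 ± 1.02) also overlapped from 1 to the next, while Cd40 (1.82 ± 0.455) was again the lowest.

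**Figure D1:**
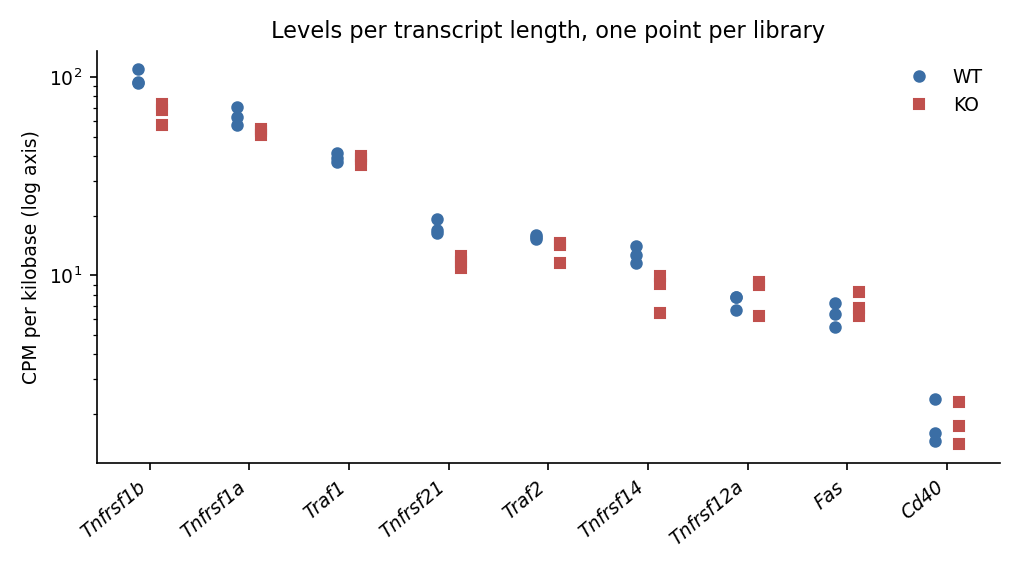
Level of each of the 9 genes per length (y axis, CPM per kilobase of coding transcript, log axis), with 1 point for each library, WT as circles and KO as squares. Tnfrsf1b is highest in both genotypes (means 98.8 and 66.2) and Cd40 lowest (1.82 in both).

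The depth behind these values ranged from 17757351 to 19998611 estimated counts per library. The counts of single members ran from 80 to 142 for Cd40 up to 4309 to 7613 for Tnfrsf1b. Counting error alone was 11.2% of the value at the lowest Cd40 count and 1.52% at the lowest Tnfrsf1b count. The spread between replicates of Tnfrsf1b, which includes counting error, was 9.06% of the mean in WT and 11.9% in KO. lincRNA-EPS, listed as Ttc39aos1, had 20, 37 and 41 counts in the WT libraries and 0 in each KO library, where a floor of 3 counts per library makes it at least 10.8-fold lower. Its adjusted p was 0.12 in edgeR's quasi-likelihood test. The KO libraries had a larger share of mitochondrial counts than WT (1.78 to 3.32% against 1.00 to 1.53%), and KO replicate 2 had more of the ribosomal RNA gene Rn18s-rs5 (27659 CPM) than the others (2062 to 5692 CPM). The libraries also differed by transcript GC content, within genotypes as well as between them. Across 11211 genes, which are not independent, the difference between libraries and GC content had a Pearson r of −0.59 for KO against WT, 0.62 for KO replicate 1 against KO replicate 3, and −0.55 for WT replicate 1 against WT replicate 2. The fold change of each member is therefore also given with a GC correction.

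Tnfrsf1b, a receptor for TNF found mainly on immune cells, had 360, 417 and 355 normalized CPM in the 3 WT libraries and 278, 261 and 219 in the 3 KO libraries. All 3 KO libraries were below the lowest WT library. The means were 377 ± 34.2 in WT and 253 ± 30.2 in KO (SD, n = 3), a log2 fold change of −0.58 with a standard error of 0.12 and a 95% interval of −0.84 to −0.31. The unadjusted p was 0.00086, the 81st smallest of all genes, and the adjusted p was 0.143 in edgeR's quasi-likelihood test, so the gene missed the limit. DESeq2 gave the same fold change with an adjusted p of 0.00159, past the limit. With GC correction the log2 fold change was −0.45, with an adjusted p of 0.0256 in edgeR and 7.23e-06 in DESeq2. In bulk RNA, fewer cells that express a gene and less RNA per cell cannot be told apart.

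Tnfrsf21, also called death receptor 6 and known for its part in neurons and lymphocytes, had 61.5, 69.5 and 59.2 CPM in WT and 45.6, 42.4 and 39.5 CPM in KO. The lowest WT library was well above the highest KO library. Its log2 fold change was −0.58 with a standard error of 0.11 and an interval of −0.82 to −0.34. This was the smallest p among the members, at 0.000438 unadjusted and 0.136 adjusted in edgeR's quasi-likelihood test. DESeq2 called it with an adjusted p of 0.000882. The value moved little with GC correction, to −0.49, with an adjusted p of 0.0256 in edgeR.

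Tnfrsf14 (HVEM), the receptor for LIGHT and a partner of the inhibitory receptor BTLA, had 13.6, 16.6 and 14.9 CPM in WT and 11.7, 10.6 and 7.59 CPM in KO. The groups did not overlap, but the gap was small and KO replicate 3 was well below the other KO libraries. The log2 fold change was −0.59 with a standard error of 0.18 and an interval of −0.99 to −0.19. Its adjusted p was 0.147 in edgeR's quasi-likelihood test and 0.0499 with DESeq2, and neither passes 0.01. With GC correction the log2 fold change was −0.45 and the adjusted p in edgeR was 0.0799. Without WT replicate 2 and KO replicate 3, the libraries at the ends of the GC trend, it was −0.35 with an adjusted p of 0.18, whereas Tnfrsf1b (−0.41, adjusted p 0.0305) and Tnfrsf21 (−0.46, adjusted p 0.0441) moved less. That setting was added after seeing the data.

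**Figure D2:**
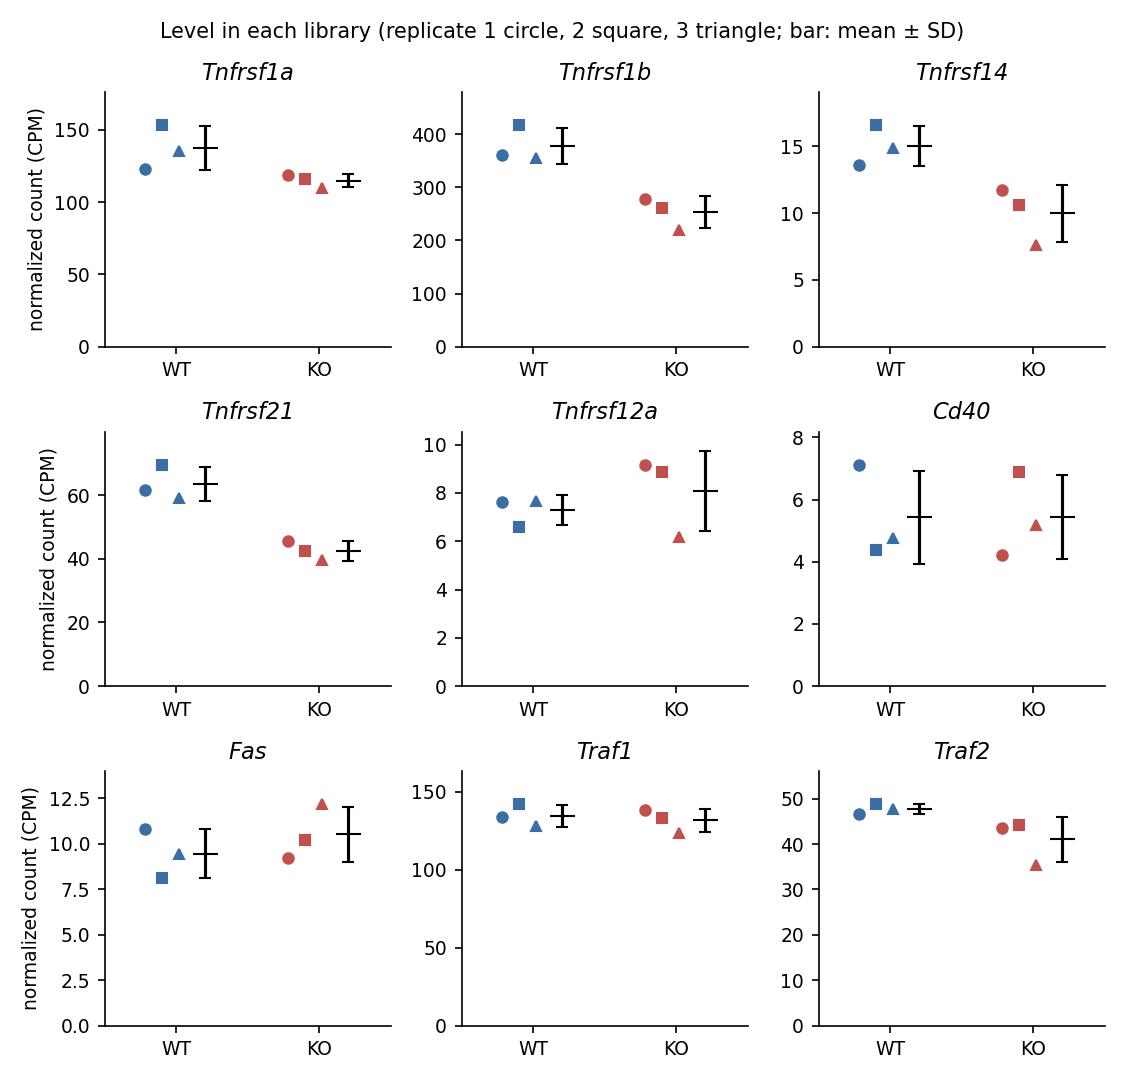
Normalized counts (y axis, CPM from 0, TMM scaling) of the 9 members in each library, with WT in blue and KO in red, replicate number by symbol, and a bar for the mean ± SD of 3 libraries. The KO libraries lie below the WT libraries for Tnfrsf1a, Tnfrsf1b, Tnfrsf14, Tnfrsf21 and Traf2, and the groups overlap for the other 4.

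Tnfrsf1a, the death-domain receptor for TNF found on most cells, had 123, 153 and 135 CPM in WT and 119, 116 and 110 CPM in KO. The KO libraries were below the WT libraries, although WT replicate 1 and KO replicate 1 were close. The log2 fold change was −0.26 with a standard error of 0.10, with an adjusted p of 0.17 in edgeR's quasi-likelihood test. With GC correction it was −0.04, with an interval of −0.22 to 0.13, and the groups overlapped. The transcript has 55.9% GC, against 53.7% for Tnfrsf1b.

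Traf2, an adaptor and ubiquitin ligase family member that links TNF receptors to NF-κB and JNK, had 46.6, 48.8 and 47.8 CPM in WT and 43.5, 44.3 and 35.3 CPM in KO. The WT libraries were close together, and the KO mean was pulled down by replicate 3. The log2 fold change was −0.22 with a standard error of 0.11 and an adjusted p of 0.239 in edgeR's quasi-likelihood test. It was −0.06 with GC correction, where the groups overlapped.

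Traf1, an NF-κB-induced adaptor without the RING finger of other TRAF proteins, had 134, 142 and 128 CPM in WT and 138, 133 and 124 CPM in KO. The groups overlapped almost completely. The log2 fold change was −0.03, with an interval of −0.24 to 0.17 that leaves out a difference of the size seen for Tnfrsf1b. With GC correction the value was 0.10 with an interval of −0.03 to 0.24, and all KO libraries were then above the WT libraries.

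Tnfrsf12a (Fn14), the receptor for TWEAK, had 7.62, 6.57 and 7.66 CPM in WT and 9.17, 8.86 and 6.16 CPM in KO. KO replicate 3 was the lowest of the 6 libraries and the other KO libraries were the highest. The log2 fold change was 0.14 with a standard error of 0.18. With GC correction, in which this GC-rich transcript (57.9%) moved the most of the 9, it was 0.40 with an interval of 0.08 to 0.72, and an adjusted p of 0.122 in edgeR's quasi-likelihood test. The groups did not overlap on the corrected scale.

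Fas, the death receptor for Fas ligand, had 10.8, 8.10 and 9.45 CPM in WT and 9.22, 10.2 and 12.2 CPM in KO. Its groups overlapped, with a log2 fold change of 0.16 (interval −0.21 to 0.52) that was −0.03 with GC correction. This transcript has the lowest GC content of the 9, at 43.4%. Cd40, the costimulatory receptor of antigen-presenting cells, had 7.12, 4.38 and 4.78 CPM in WT and 4.22, 6.90 and 5.19 CPM in KO. Single libraries were high in each genotype, and the log2 fold change was −0.01 with an interval of −0.56 to 0.55, which is wide beside the −0.58 of Tnfrsf1b. With GC correction it was −0.03 with an interval of −0.55 to 0.49.

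Counted over the 9 members, 7 were lower in KO and 2 higher, where 6580 of all genes tested were lower and 6848 higher. The 7 include Cd40 (−0.01) and Traf1 (−0.03), which were near 0. Of the 9 members, 4 had an unadjusted p under 0.05 and a lower level in KO, where 13.2% of all genes tested did so. With a higher level, 0 had such a p, against 13.0% of all genes. The libraries did not overlap and KO was lower for 5 members, against 18.8% of all genes, and KO was higher for 0, against 16.9%. After GC correction 3 members were lower at an unadjusted p under 0.05 (13.7% of all genes) and 1, Tnfrsf12a, was higher (12.9%). On that scale KO was lower without overlap for 3 (17.1% of all genes) and higher for 2 (15.6%), namely Tnfrsf12a and Traf1. The median log2 fold change of the members was −0.22 and that of all genes 0.01. With GC correction these were −0.04 and 0.00. The members were chosen with earlier results of these data known, so these counts and medians are a description only. Of the 13 other TNF receptors tested, 8 were higher and 5 lower in KO. Their median log2 fold change was 0.14, and 0.11 with GC correction.

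**Figure D3:**
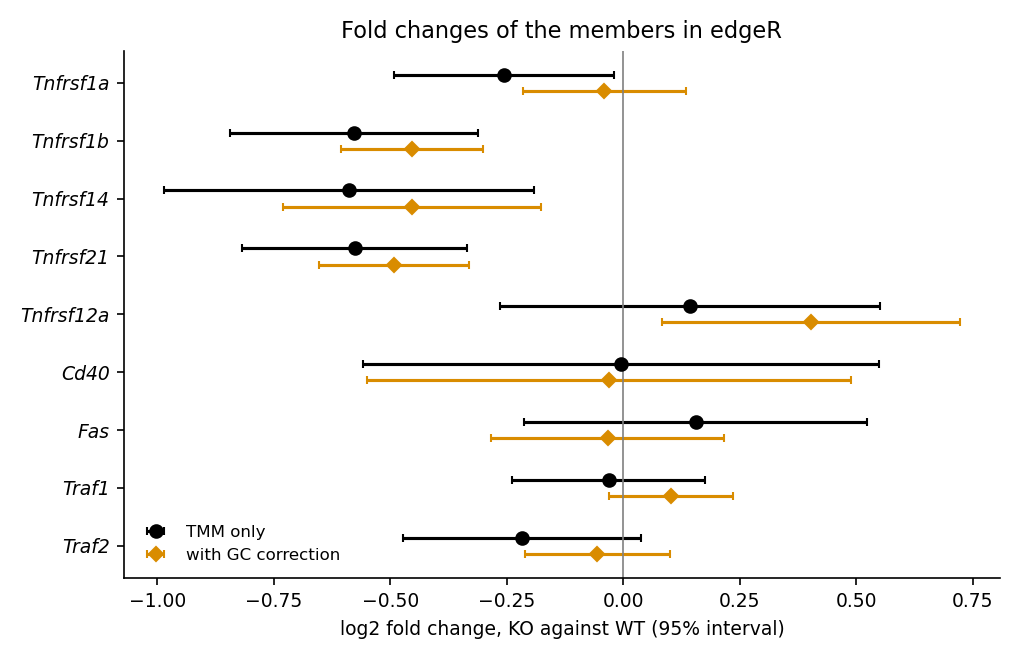
Log2 fold change of KO against WT (x axis) with its 95% interval for each member in edgeR, with TMM scaling only (black circles) and with GC correction (orange diamonds). Tnfrsf1b, Tnfrsf21 and Tnfrsf14 stay below 0 on both scales (−0.45 to −0.49 with correction), Tnfrsf1a and Traf2 move to −0.04 and −0.06, and Tnfrsf12a moves up to 0.40.

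The balance of the TNF receptors was compared within each library, which needs no scaling between libraries. The ratio of Tnfrsf1b to Tnfrsf1a counts was 2.93, 2.72 and 2.63 in WT and 2.34, 2.25 and 2.00 in KO. The ratio was lower in all 3 KO libraries, with a difference of −0.33 on the log2 scale. The exact two-sided permutation test gave p = 0.1, the smallest that 3 against 3 libraries allow. On GC-corrected counts the difference was −0.41, again without overlap.

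Among the adaptors, the ratio of Traf1 to Traf2 counts was 2.87, 2.91 and 2.68 in WT and 3.17, 3.01 and 3.50 in KO. It was higher in every KO library, by 0.19 on the log2 scale (0.16 with GC correction), and the exact two-sided permutation test again gave p = 0.1. As both ratios were among 2 compared, their adjusted p is also 0.1.

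**Figure D4:**
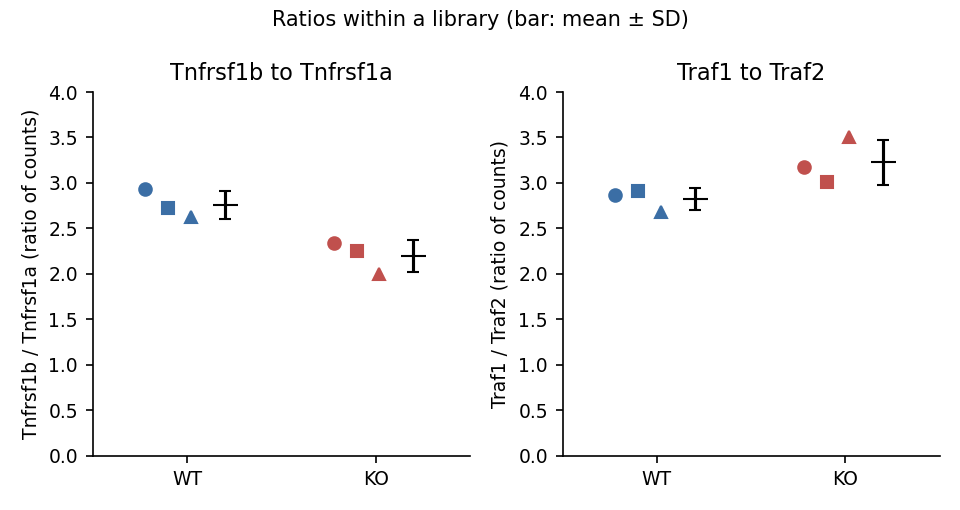
Ratio of counts within each library (y axis, from 0) for Tnfrsf1b to Tnfrsf1a and for Traf1 to Traf2, with WT in blue, KO in red and the mean ± SD of 3 libraries. The receptor ratio is at most 2.34 in KO and at least 2.63 in WT, and the adaptor ratio is at least 3.01 in KO and at most 2.91 in WT.

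By position, Tnfrsf1b and Tnfrsf14 are on chromosome 4, as is lincRNA-EPS, but 35.8 and 45.5 Mb away from it (GENCODE M21, GRCm38). Tnfrsf1b spans chr4:145213463-145246870 and Tnfrsf14 chr4:154921933-154928563, both on the minus strand. Tnfrsf21 is on chromosome 17, at chr17:43016555-43089189 on the plus strand. The other members are on chromosomes 2, 6, 17 and 19.

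The genes most like Tnfrsf1b over the 6 libraries, by Pearson r of log2 normalized counts, were Arhgef10l (0.999), Bmp2k (0.998), Slc15a3 (0.997), Plcg1 (0.997) and Man1c1 (0.996). These 6 points share the genotype difference and the GC trend of the libraries, so the values are a description only. Of these, Arhgef10l had means of 76.4 CPM in WT and 41.7 in KO, and Slc15a3, a lysosomal transporter of peptides and histidine, 141 and 89.9. Bmp2k differed less, at 63.0 and 57.2 CPM. Among the members, Tnfrsf21 was the most like Tnfrsf1b (r = 0.989), followed by Tnfrsf14 (0.969), Tnfrsf1a (0.909) and Traf2 (0.895). Their ranks by r were 49, 331, 1574 and 1828 of the 13427 other genes, so values near 0.9 were common. Traf1 (0.599), Tnfrsf12a (−0.084), Cd40 (−0.145) and Fas (−0.719) followed Tnfrsf1b less or ran the other way.

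The rest of the pathway was counted from 6 lists holding 90 further genes, of which 73 were tested. Of these, 37 were higher and 36 lower in KO, and 15 (20.5%) had an unadjusted p under 0.05, against 26.2% of all genes tested. No gene of these lists passed the limits in edgeR's quasi-likelihood test, and 1 passed with DESeq2.

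Of 21 other TNF receptors, 13 were tested, with 2 higher and 1 lower at an unadjusted p under 0.05. Tnfrsf9 (4-1BB), a costimulatory receptor, had 6.77 ± 0.749 CPM in WT and 10.8 ± 0.925 in KO, a log2 fold change of 0.66 (0.61 with GC correction). Its libraries did not overlap, and its adjusted p was 0.147 in edgeR's quasi-likelihood test and 0.021 in DESeq2. Tnfrsf4 (OX40) was close to the limit of detection, at 0.509 CPM in WT and 1.28 in KO. Ltbr, the lymphotoxin beta receptor, was at 74.8 and 54.9 CPM, a log2 fold change of −0.44 that was −0.06 with GC correction. Tnfrsf11a (RANK) was the highest of these receptors and nearly level, at 152 ± 4.52 CPM in WT and 151 ± 10.5 in KO.

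Of 18 ligands, 10 were tested. Tnf itself had 25.1 ± 4.77 CPM in WT and 29.0 ± 3.25 in KO, with overlapping libraries and an unadjusted p of 0.204 in a model fitted across all genes with edgeR. Tnfsf12 (TWEAK), the ligand of Tnfrsf12a, was the only ligand with an unadjusted p under 0.05, at 52.9 and 44.0 CPM, and its log2 fold change of −0.27 was 0.04 with GC correction.

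All 10 other TRAF genes were tested, with 2 at an unadjusted p under 0.05, both higher in KO. Tank, an inhibitor of TRAF signalling, had 93.6 and 133 CPM (log2 fold change 0.51, and 0.14 with GC correction). Traf5, which acts beside Traf2, had 13.0 ± 0.938 and 16.2 ± 0.996 CPM, a log2 fold change of 0.32 that was 0.53 with GC correction. Traf3, a brake on noncanonical NF-κB and among the 2 most abundant genes of the list, had 124 ± 12.3 and 98.4 ± 19.7 CPM with overlap.

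The 25 receptor-proximal adaptors, ligases and kinases were all tested, and 5 were lower and 2 higher at an unadjusted p under 0.05. Map3k14 (NIK), the kinase of noncanonical NF-κB, had 31.1 ± 7.64 and 20.02 ± 4.78 CPM, a log2 fold change of −0.63 (−0.33 with GC correction). Birc2 (cIAP1), a ligase that binds TRAF2, had 21.2 and 27.2 CPM (0.36, and 0.16 with correction). Tab1, a partner of the kinase TAK1, had 33.6 and 25.0 CPM (−0.43, and −0.14 with correction). The most abundant of the list were Tnip1, at 188 and 158 CPM with overlap (−0.25, and 0.02 with correction), and Tab2, at 151 and 169 CPM (0.16, and 0.12 with correction).

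In the death arm of TNF and Fas signalling, 13 of 14 genes were tested. Faim, an inhibitor of Fas-induced death, had 33.6, 31.0 and 33.3 CPM in WT and 45.3, 48.7 and 47.8 CPM in KO. All KO libraries were above all WT libraries, by 0.53 on the log2 scale (0.49 with GC correction). The adjusted p was 0.136 in edgeR's quasi-likelihood test and 0.000674 in DESeq2, where it passed the limits. Cflar, which blocks caspase-8, and Ripk1 were the most abundant of the list, with log2 fold changes of 0.05 and 0.02 that were −0.11 and −0.12 with GC correction. The direction of these small differences thus depends on the correction.

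All 5 genes of receptor shedding were tested. Adam17, the protease that releases TNF and both of its receptors from the cell surface, had 254 ± 5.88 CPM in WT and 247 ± 7.85 in KO, and Adam10 204 ± 21.9 and 215 ± 12.4. Their log2 fold changes were −0.04 and 0.08, and −0.18 and −0.14 with GC correction, so that the sign of Adam10 changed. Rhbdf2 (iRhom2), which carries Adam17 to the surface in macrophages, had 76.7 ± 13.9 and 53.6 ± 11.6 CPM. Its libraries did not overlap, and its log2 fold change of −0.52 was −0.22 with GC correction (adjusted p 0.153 and 0.132 in edgeR's quasi-likelihood test).

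**Figure D5:**
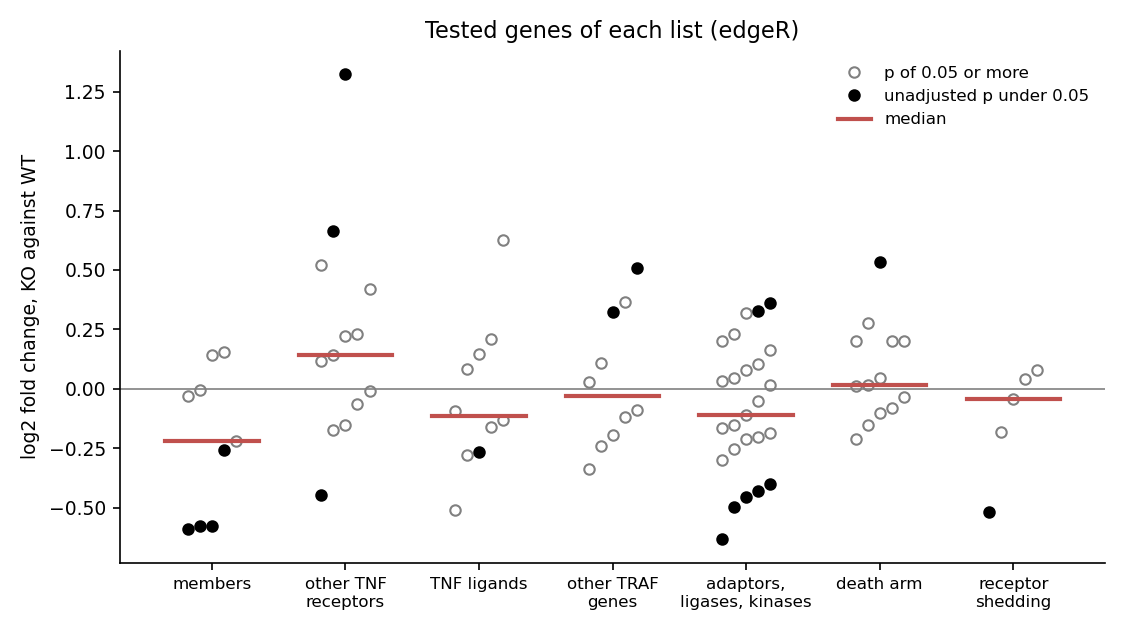
Log2 fold change of KO against WT (y axis, edgeR, TMM scaling) for the tested genes of the 9 members and of the 6 further lists, filled where the unadjusted p is under 0.05, with a red line at the median of each list. The median of the members is −0.22, and those of the other lists lie between −0.11 and 0.14.

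Markers of cell types were counted in the same way. None passed the limits in edgeR's quasi-likelihood test, while DESeq2 called 4 osteoclast, 2 macrophage and 4 neutrophil markers, and 1.22% of all its genes. Of 11 osteoclast markers 9 were higher in KO, 6 of them with an unadjusted p under 0.05 (13.0% of all genes tested), and their summed level was 5252 to 5678 CPM in WT and 7003 to 7419 in KO. All 8 macrophage markers had a log2 fold change below 0, and 5 of them an unadjusted p under 0.05 (13.2% of all genes tested). KO was lower without overlap for 6 of them (18.8% of all genes tested). With GC correction Cd68 moved from −0.003 to 0.10, and the median of the 8 markers from −0.26 to −0.22. The sum of the 8, most of which was Lyz2 (13303 CPM in WT and 12882 in KO, with overlap), did overlap (16498 to 17638 and 14864 to 17667 CPM). Of 11 tested neutrophil markers 9 were higher, 6 of them with an unadjusted p under 0.05 (13.0% of all genes tested). A further 1 was lower with such a p (13.2%), and the sums were 1388 to 1557 CPM in WT and 1811 to 2178 in KO. The most abundant were S100a9, at 358 ± 63.6 CPM in WT and 622 ± 66.2 in KO, and Ngp, at 322 ± 16.3 and 452 ± 62.5, while Mpo was lower (193 ± 38.6 and 144 ± 21.8) and Ly6g had at most 5 counts in any library. T cell markers summed to at most 8.05 CPM, NK cell markers to at most 2.19 and erythroid markers to at most 1.73. B cell markers summed to 27.8 to 32.2 CPM in WT and 33.4 to 37.8 in KO, dendritic cell markers to 13.3 to 17.2 and 18.5 to 20.7, and stromal markers to 15.0 to 20.3 and 11.2 to 17.6. The part of cell makeup and of the mitochondrial share in the levels of Tnfrsf1b, Tnfrsf21 and Tnfrsf14 was not tested.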

How the data were processed

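The authors deposited 1 table of estimated counts per gene, not normalized, for 3 WT and 3 KO libraries, made from poly(A) RNA with a stranded Illumina kit. The submitters' processing notes name fastp, HISAT2, StringTie, RSEM and GRCm39, without versions, and give no roles. The table also holds the authors' mean for each genotype (2 columns), not used here, and KEGG and Pfam annotation. Of the detected genes in a library, 25.14 to 26.59% had estimated counts that were not whole, and these were rounded for the tests.

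Libraries were grouped by the genotype in their labels. With R 4.3.3, genes were kept by filterByExpr in edgeR 4.0.16, libraries were scaled by TMM, and KO was compared with WT by glmQLFit (legacy = FALSE) and glmQLFTest over all 13428 genes. Benjamini-Hochberg adjustment ran over all of these. A gene was called at an adjusted p under 0.01 together with a fold change above 1.3. The common biological coefficient of variation was 0.142, and the p-values measure the spread between 3 cultures per genotype. DESeq2 1.42.0, limma 3.58.1 and other settings were alternatives. The GC correction is a natural spline with 5 degrees of freedom of each library on transcript GC content, entered as offsets. GC content and length came from the longest coding transcript in GENCODE M21 (GRCm38), and 13176 tested genes had a GC value. Ratios were compared with exact permutation tests. Intervals have a level of 95%. The scripts were tested on simulated counts.

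The members and lists were chosen with earlier results of these data known. Named were all members, lincRNA-EPS, the 5 genes most like Tnfrsf1b, and in each pathway list the genes past the limits in edgeR or DESeq2, up to 3 with the smallest unadjusted p under 0.05, and the 2 most abundant. Of marker lists, the 2 most abundant neutrophil genes are named, and Lyz2, Cd68, Mpo and Ly6g, chosen after their values were seen. Every pair of libraries differed by more than counting noise.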

Additional observations from a re-analysis of the deposited data

How the results depend on the processing

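In edgeR 1 gene of all genes and 0 members passed the limits, although 3515 genes and 4 members had an unadjusted p under 0.05. With DESeq2 126 genes passed, with GC correction 7, with GC correction in DESeq2 363, and without WT replicate 2 and KO replicate 3, a setting added after seeing the data, 8. The DESeq2 fits also differed in the filter on low counts, with 10357 genes adjusted without GC correction and 11863 with it. Leaving out each replicate in turn gave 0 to 2 genes and 0 members. DESeq2 called 2 members with or without GC correction, Tnfrsf1b (−0.58, and −0.45 with correction) and Tnfrsf21 (−0.58 and −0.49). Over the 18 alternatives, the log2 fold change lay between −0.65 and −0.41 for Tnfrsf1b, −0.63 and −0.46 for Tnfrsf21, and −0.72 and −0.35 for Tnfrsf14, below 0 throughout, with adjusted p-values of edgeR, DESeq2 or limma from 7.23e-06, 7.12e-05 and 0.0428 up to 0.442. Tnfrsf1a, Traf2 and Tnfrsf12a also kept their sign, but leaving out 1 replicate gave values from −0.33 to −0.17 (without WT replicate 2) for Tnfrsf1a, from −0.28 to −0.12 (without KO replicate 3) for Traf2, and for Tnfrsf12a from 0.041 (without KO replicate 1) to 0.31 (without KO replicate 3). The sign changed for Fas to −0.034 with GC correction, −0.031 with the replicate block added, −0.034 with DESeq2 added, and −0.063 without WT replicate 2 and KO replicate 3, and for Traf1 to 0.10 with GC correction in the same 3 forms and to 0.051 without those libraries. Leaving out 1 replicate moved Fas between 0.035 and 0.26, Traf1 between −0.068 and 0.011 and Cd40 between −0.21 and 0.24. The cause of these changes was not tested. Replicate numbers did not pair the libraries: same-numbered WT and KO libraries correlated at −0.215, 0.0766 and 0.166 in their deviations. With the replicate block 1 gene and 0 members were called, the adjusted p in edgeR was 0.0747 for Tnfrsf1b and Tnfrsf21 and 0.0885 for Tnfrsf14, and Cd40 was at 0.0012. Depth was lowest for Cd40, where counting error was 8.39 to 11.2% of the value and the spread between replicates was 27.3% of the mean in WT and 25.0% in KO.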
